A study of Mus musculus with 8 samples.

Results

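RNA of serum exosomes was compared between mice that carried the canine osteosarcoma line OSCA-32 and mice that had received phosphate-buffered saline (PBS), both at week 8. The 2 OSCA-32 libraries and the 2 PBS libraries were taken by their labels, which makes 4 of the 8 libraries of the study. All mice were of the nude strain NCr nu/nu, which lacks a working thymus, and all received 10 µl into the tibia, either PBS or 100000 tumour cells. Serum was pooled over mice of a group at necropsy. The other 4 libraries, 2 from serum of all mice before injection (week 0) and 2 from mice with a second canine line, OSCA-40, entered the filter, the scaling and the fit, where they add to the estimate of the spread, and their values are given beside those of the comparison. Each group has 2 libraries of pooled serum and the tumour group rests on 1 cell line, and nothing in the labels ties the 2 libraries of a group to separate animals. The p-values therefore measure the spread between libraries, which may be technical.

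Exosomes are vesicles of endosomal origin that most cells release, and in serum they carry short and long RNA from platelets, red cell precursors, liver, vessel walls and other tissues. Osteosarcoma is a malignant bone tumour of dogs and people that spreads to the lung. In a mouse with a canine graft, RNA of the graft and RNA of the host can be told apart only where their sequences differ. Exosome libraries also hold fragments of ribosomal, mitochondrial and repeat-derived RNA, so the value listed for a gene need not come from its whole mRNA.

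The deposited table lists 31300 mouse and 20716 canine genes together, and each library sums to between 977106 and 989183 whatever its content. A value is therefore a gene's part of its library, and how deeply each library was sequenced is unknown. Median absolute differences between the 2 libraries of a group were 0.237 for PBS and 0.313 for OSCA-32 on the log2 scale. Vesicle markers were low apart from Cd9, which stood at 208 and 192 with PBS and at 106 and 117 with OSCA-32; Cd63, Cd81, Tsg101, Sdcbp, Flot1 and Pdcd6ip were all at 19 or less in these 4 libraries.

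The weight of canine genes in the libraries differed widely between the groups. Canine genes made up 14.73% and 15.25% of the PBS libraries and 44.72% and 43.27% of the OSCA-32 libraries, or 14.99% ± 0.368 (SD, n = 2) against 43.995% ± 1.03 (SD, n = 2). Both OSCA-32 libraries lay far above both PBS libraries, and the difference was 29.01 percentage points. An exact two-sided permutation test of 2 against 2 libraries gave p = 0.333, the smallest p that its 6 splits allow. PBS mice carried no canine cells, and the week 0 libraries, taken before any injection, had a canine share of 16.08% and 17.37%. Values for canine genes were thus also listed where no graft was present.

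A single canine gene had a gain nearly as large as this whole net difference. It was listed at 42333 and 49440 with PBS, at 324687 and 311612 with OSCA-32, at 56069 and 63599 in week 0 and at 8 in both OSCA-40 libraries. It rose by 3.39 ± 0.0867 (SE) on the log2 scale after the scaling described below (limma adjusted p = 2.54e-06). As deposited, its gain equalled 95.1% of the net difference in the canine total, in which losses are set against gains. The next 10 gains together equalled a further 12.5%. The gene with this largest gain is described first. This gene was 4.33% and 5.06% of the PBS libraries and 33.0% and 31.7% of the OSCA-32 libraries. Without this gene and the one next to it in level, the canine share was 6.02% and 6.26% with PBS and 13.43% and 13.11% with OSCA-32, so that the groups still did not overlap and the difference was 7.13 points. The gene next in level stood at 48308 and 44196 with PBS and at 30926 and 29589 with OSCA-32, a log2 fold change of -0.02 ± 0.0684 after scaling. Another canine gene of high level rose by 1.72 ± 0.0982, from 8539 and 10100 to 20394 and 20232.

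**Figure D1:**
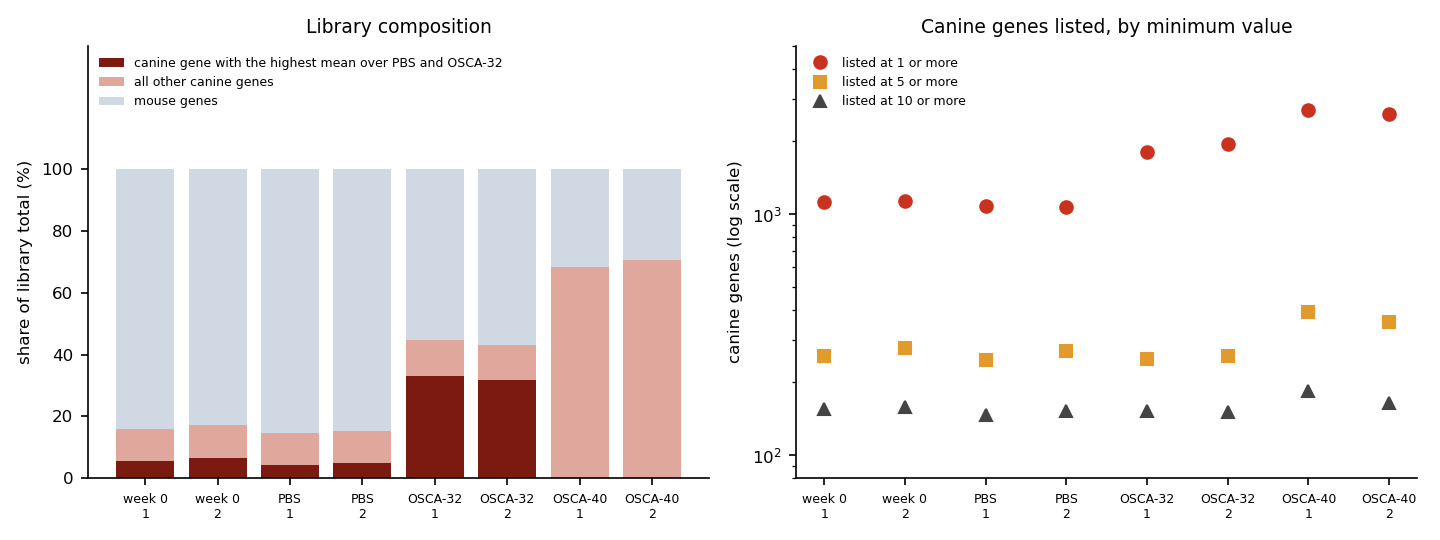
Left, share of the library total (%) held by the canine gene with the highest mean over the PBS and OSCA-32 libraries, by the other canine genes and by mouse genes, 1 bar per library of each group. Right, canine genes listed at 1, 5 or 10 or more (log scale) in the same libraries. With OSCA-32 the highest canine gene held 33.0% and 31.7%, and the number of canine genes was higher than with PBS only at the lowest minimum.

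More canine genes were listed with OSCA-32, but at very low values. At 1 or more there were 1083 and 1068 canine genes with PBS and 1807 and 1952 with OSCA-32, a difference of 804 in the means (exact permutation p = 0.333, the smallest possible). At 5 or more there were 247 and 269 against 249 and 258, and at 10 or more 147 and 152 against 152 and 151, so at these minimums the groups overlapped. Both OSCA-32 libraries listed 356 canine genes that no week 0 or PBS library listed; 293 of them were at 1 or 2 in both and 9 at 10 or more in both. The opposite arrangement, 0 in both OSCA-32 libraries and 1 or more in all 4 tumour-free libraries, held for 20 canine genes. Of the 356 genes, 314 were also at 1 or more in both OSCA-40 libraries and 27 were at 0 in both.

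The values of a library share a fixed total, and mouse genes as a whole stood lower with OSCA-32 as deposited. Before any scaling, the middle of the tested mouse genes lay at a log2 ratio to PBS of -0.55. Values were therefore divided by a factor for each library that brings the bulk of mouse genes together (0.9782 and 1.0046 for the OSCA-32 libraries, 1.4785 and 1.4999 for the PBS libraries), after which that median was 0.00125. A scaled value below is a deposited value so divided, and a log2 fold change is the difference in log2(scaled value + 1), which understates the change of genes with low values. Of 7655 mouse genes tested with limma, 29 were higher with OSCA-32 (0.379%) and 13 lower (0.17%) at an adjusted p of 0.05. Of 217 canine genes, 44 were higher (20.3%) and 2 lower (0.922%). The same fit gave 386 mouse genes higher (5.04%) and 330 lower (4.31%) at an unadjusted p of 0.05. With library totals alone as the scale, 22 mouse genes were higher and 1207 lower, and 43 canine genes were higher and 22 lower.

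The calls depended on single libraries. Of the 42 mouse genes that passed, 10 still passed without the first PBS library and 8 without the second, and 10 and 24 without the first and second OSCA-32 library; all 42 kept their direction. In all 8 fits that leave out 1 library, Cd300lf, Ndufb2, Wapl, Gm44060, Ccdc107, Rdh16f1, Gm20594 and Foxp2 passed. With no filter on low values Wapl and Gm44060 did not pass, and with no variance trend Wapl and Foxp2 did not. All 8 genes passed when only the 4 libraries compared were fitted, where 9 mouse genes were higher and 8 lower in all. Rdh16f1, listed at 0 in all 4 tumour-free libraries, entered the test only through the tumour groups. The fits on fewer libraries kept the genes chosen over all 8, so the passing of Rdh16f1 there adds nothing to its values.

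**Figure D2:**
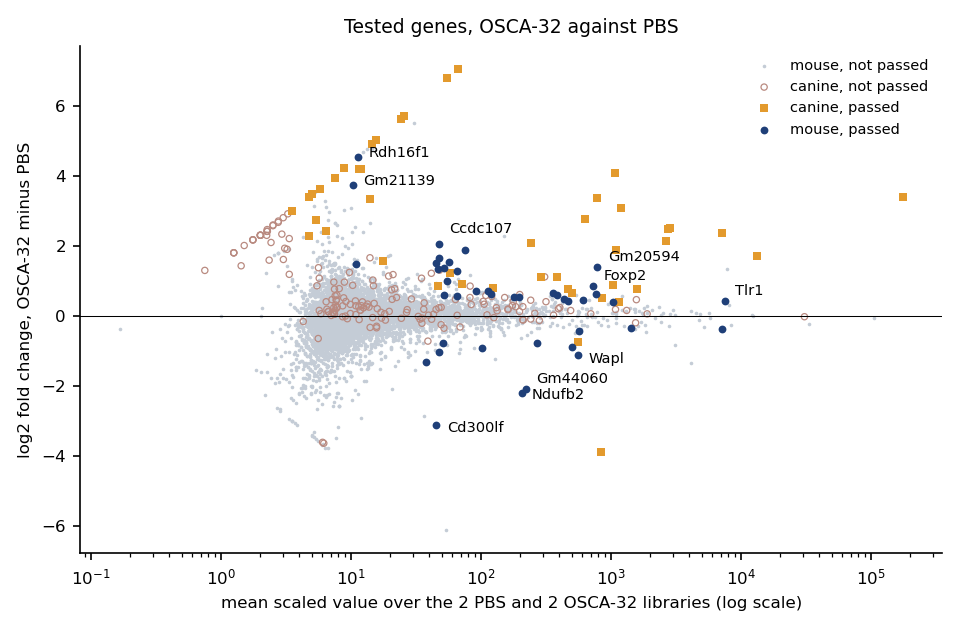
Log2 fold change of OSCA-32 minus PBS (scaled values) against the mean scaled value over the 4 libraries compared (log scale), 1 point per tested gene. Filled points passed at an adjusted p of 0.05, among them 29 mouse genes higher and 13 lower, and the fold change of a gene listed at 0 with PBS, such as Rdh16f1, depends on the 1 added to each value.

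Among canine genes that passed as higher, levels in tumour-free mice differed widely. With PBS, 21 of the 44 had a mean of 100 or more, and the median of their log2 fold changes was 1.88, from 0.398 to 4.07. A further 12 were listed at 0 in all 4 tumour-free libraries and at between 6 and 137 with OSCA-32. Another 7 were not at 0 throughout but stayed below 10 in every tumour-free library. Both sets entered the test only through the tumour groups, so their passing adds little to their values. As deposited, both OSCA-32 values exceeded both PBS values in 40 of the 44, as they did in 38.2% of all canine genes tested. Relative to the mouse genes the canine genes were higher as a set, with a positive fold change in 184 of 217 (84.8%) and a median of 0.463. Among mouse genes 50.2% were positive, with a median of 0.00125 that the scaling fixes. As deposited, the median log2 ratio to PBS was -0.087 for tested canine genes and -0.55 for mouse genes. Of the 217, 33 were at 0 in all 4 tumour-free libraries and entered only through the tumour groups (median 2.58). The median was 1.21 for 38 others with a PBS mean under 10, which include the 7 that passed and reached 10 only with a tumour. It was 0.197 for 84 with a PBS mean of 10 to under 100, and 0.402 for 62 at 100 or more.

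A pair of canine genes were listed at 0 in tumour-free mice and entered the test only through the tumour groups. ENSCAFG00000030230 was listed at 0 in both week 0 and both PBS libraries and at 137 and 126 with OSCA-32, and stood at 458 and 423 with OSCA-40. ENSCAFG00000032531 was listed at 0 in the same 4 libraries and at 107 and 112 with OSCA-32, and at 318 and 302 with OSCA-40. Both genes were thus listed in the 4 tumour libraries and in none of the tumour-free ones. ENSCAFG00000031479 fell by 3.88 ± 0.293 (SE) on the log2 scale, from 2374 and 2346 with PBS to 90 and 124 (limma adjusted p = 0.00105); it stood at 1252 and 1140 in week 0. ENSCAFG00000031012 fell by 0.743 ± 0.102 (SE) on the log2 scale, from 1008 and 1074 to 408 and 419 (limma adjusted p = 0.0193), and did not pass without any 1 of the week 0, PBS or OSCA-32 libraries (adjusted p of 0.0589 to 0.173). No names for canine identifiers were used here, and what these genes encode is not given.

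Among the mouse genes that passed, the sharpest fall was that of Cd300lf, an inhibitory immunoglobulin-like receptor of myeloid cells that is also the entry receptor of murine norovirus (chromosome 11, 115116214 to 115133992). It was listed at 115 and 114 in week 0, at 122 and 124 with PBS and at 8 and 9 with OSCA-32. The OSCA-32 libraries were far below all tumour-free libraries, and it fell by 3.13 ± 0.125 (SE) on the log2 scale (limma adjusted p = 2.33e-05), with values of -3.19 to -3.07 when any 1 library was left out. Other receptors of the CD300 family did not follow. Of the 4 members tested only Cd300lf passed, and Cd300a, another inhibitory member encoded on the same chromosome, stood at 25 and 30 with PBS and at 22 and 19 with OSCA-32 (log2 fold change 0.16 ± 0.172, adjusted p = 0.83). Macrophage markers were near the floor in all 4 libraries, with Lyz2, Cd68, Adgre1 and Csf1r at between 0 and 6. The longest run of bases that Cd300lf shares with another receptor of the family, Cd300ld, was 134 bases.

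Ndufb2, which encodes an accessory subunit of complex I of the respiratory chain (chromosome 6, 39592574 to 39603382), was the next of the genes with an established symbol. It was listed at 318 and 317 in week 0, at 468 and 541 with PBS and at 74 and 71 with OSCA-32. It fell by 2.19 ± 0.106 (SE) on the log2 scale (limma adjusted p = 7e-05), and the value lay between -2.29 and -2.10 with any 1 library left out. Of the 14 nuclear-encoded subunits of complex I that were tested, it alone passed, and their median was -0.00956. Ndufab1, the member with the next highest level, stood at 151 and 137 with PBS and at 104 and 78 with OSCA-32 (log2 fold change -0.09 ± 0.357). None of the 18 tested subunits of complexes II to V passed.

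Wapl, which releases the cohesin ring from chromosomes (chromosome 14, 34673928 to 34747983), was listed at 709 and 671 in week 0, at 1179 and 1112 with PBS and at 328 and 374 with OSCA-32. It fell by 1.12 ± 0.104 (SE) on the log2 scale (limma adjusted p = 0.00303). Its PBS values stood above week 0 as well, and against week 0 the OSCA-32 libraries differed by -0.44 ± 0.104 (SE) on the log2 scale (adjusted p = 0.17). The other 8 tested genes of the cohesin list did not pass; Stag2, a core subunit, stood at 106 and 128 with PBS and at 115 and 87 with OSCA-32. Apart from Wapl, no tested gene of that list stood above 128 with PBS.

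Ddr2, a receptor tyrosine kinase for fibrillar collagen (chromosome 1, 169972307 to 170110762), was listed at 208 and 193 with PBS and at 66 and 74 with OSCA-32, and fell by 0.923 ± 0.112 (SE) on the log2 scale (limma adjusted p = 0.0113). Ltbp1, which binds latent TGF-beta in the matrix (chromosome 17, 75005568 to 75392512), was listed at 1010 and 946 with PBS and at 471 and 486 with OSCA-32, and fell by 0.443 ± 0.0735 (SE) on the log2 scale (limma adjusted p = 0.0456). Focad, which encodes a focal adhesion protein, was listed at 967 and 982 with PBS and at 322 and 385 with OSCA-32 and fell by 0.88 ± 0.104 (SE) on the log2 scale. As deposited, where mouse genes as a whole stood lower with OSCA-32, all 3 lay below PBS and week 0. After scaling, the difference of OSCA-32 from week 0 was -0.145 ± 0.0735 for Ltbp1 (limma adjusted p = 0.6) and -0.465 ± 0.104 for Focad (adjusted p = 0.139), neither of which passed, and -0.779 ± 0.112 for Ddr2 (adjusted p = 0.0247), which did. None of the 3 kept its call without either PBS library or without the first OSCA-32 library (limma adjusted p of 0.0742 to 0.288). Of their lists, 1 of 6 latent TGF-beta genes and 1 of 5 collagen receptor and matrix adhesion genes passed; the TGF-beta receptor gene Tgfbr1 stood at 62 and 64 with PBS and at 43 and 44 with OSCA-32 (log2 fold change 0.05 ± 0.151). Fn1, a matrix protein on the fibroblast list with Ddr2, stood at 44 and 43 and at 25 and 35 (log2 fold change 0.03 ± 0.176).

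The remaining genes with an established symbol that fell were Fam81a by 0.783 ± 0.0888, the alpha-kinase gene Alpk2 by 1.03 ± 0.117, the inflammasome sensor gene Nlrp9b by 0.78 ± 0.131 and the pseudogene Mup-ps26 by 1.32 ± 0.209, each on the log2 scale with its SE. Fam81a was listed at 519 and 492 with PBS and at 182 and 209 with OSCA-32, and Nlrp9b at 98 and 95 and at 36 and 38. Mup-ps26 was listed at 42 and 36 in week 0, at 80 and 82 with PBS and at 17 and 26 with OSCA-32. After scaling its OSCA-32 and week 0 libraries overlapped, with a difference of -0.339 ± 0.209 (limma adjusted p = 0.68). All 4 lost the call without either PBS library or the first OSCA-32 library and kept their direction. Nlrp9b and Mup-ps26 also lost it without either OSCA-40 library, and Mup-ps26 without either week 0 library. Among predicted genes 3 fell. Gm44060, a processed pseudogene on chromosome 6, was listed at 623 and 443 with PBS and at 91 and 73 with OSCA-32, and fell by 2.09 ± 0.196 (SE) on the log2 scale (limma adjusted p = 0.00307).

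Genes that passed, and above all those that fell, were listed high. With PBS, 10 of the 13 (76.9%) had a mean of 100 or more, as had 15 of the 29 that were higher (51.7%), beside 6.77% of the tested mouse genes. SEs tended to be smaller for genes listed high, such as 0.0636 for Lpl (378 and 369 with PBS) against 0.231 for Ccr2 (14 and 13). A given fold change thus passes more readily at a high level. Whether the high values come from whole mRNA, or from fragments of one stretch of it, was not tested.

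**Figure D3:**
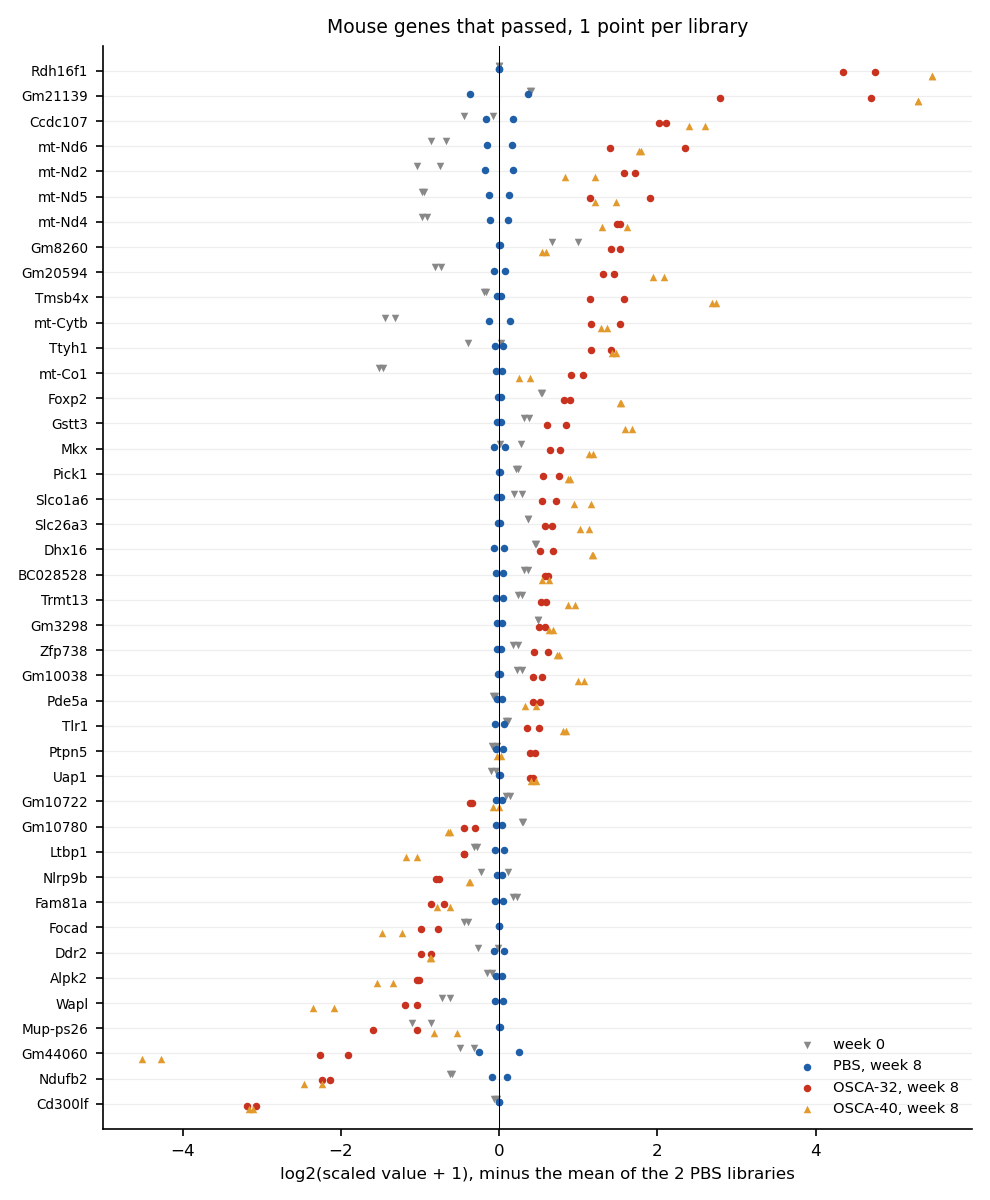
Log2(scaled value + 1) minus the mean of the 2 PBS libraries for the 42 mouse genes that passed, 1 point per library of week 0, PBS, OSCA-32 and OSCA-40, ordered by fold change. Cd300lf, Ndufb2 and Gm44060 lie lowest with OSCA-32, at -3.13, -2.19 and -2.09; the choice of genes fixes the gap between PBS and OSCA-32.

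The predicted gene Gm10722 fell by 0.36 ± 0.0575 (SE) on the log2 scale, from 2445 and 2347 to 1214 and 1272 (limma adjusted p = 0.0407), and without each of the 8 libraries it did not pass. It shares sequence with the mouse gene of the highest values: bases 36 to 111 of its GENCODE transcript (chromosome 9, 3000922 to 3002330, plus strand, GRCm38) are identical to a run in Gm10800 and are shown because reads of this stretch cannot be told apart.
Gm10722: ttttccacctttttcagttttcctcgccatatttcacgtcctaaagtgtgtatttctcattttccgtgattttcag
Along Gm10722, 65.2% of bases equal the base 234 positions on, the best of the shifts tried. Gm10800 stood at 165321 and 157550 with PBS and at 100332 and 105580 with OSCA-32, which after scaling was a log2 fold change of -0.06 ± 0.0772 (adjusted p = 0.863). Gm10780, another predicted gene with high values, fell by 0.38 ± 0.0624 (SE) on the log2 scale, from 11589 and 12409 to 6354 and 5925, and likewise lost its call without each library.

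Mitochondrially encoded mRNAs were the 1 group in which several members passed. Mitochondrial DNA encodes 13 proteins of the respiratory chain, all tested here: 6 rose, none fell, and their median log2 fold change was 1.05. mt-Nd4, of complex I (bases 10167 to 11544 of the mitochondrial genome) was listed at 16 and 17 in week 0, at 37 and 32 with PBS and at 67 and 67 with OSCA-32, a log2 fold change of 1.51 ± 0.15 (SE, limma adjusted p = 0.00416). mt-Nd2 stood at 38 and 30 with PBS and at 75 and 70 with OSCA-32 and rose by 1.65 ± 0.197. mt-Nd5 rose by 1.53 ± 0.245, from 38 and 46 to 106 and 64, and mt-Nd6, the only one encoded on the light strand, by 1.87 ± 0.286, from 40 and 51 to 155 and 82. In both of these the first OSCA-32 library stood well above the second.

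Outside complex I, mt-Cytb of complex III rose from 35 and 43 to 75 and 60 (log2 fold change 1.34 ± 0.165, limma adjusted p = 0.0123) and mt-Co1 of complex IV from 55 and 53 to 75 and 69 (0.98 ± 0.123, limma adjusted p = 0.0126). mt-Nd1 stood at 29 and 39 and at 47 and 48 (1.05 ± 0.207, limma adjusted p = 0.0833) and mt-Co2 at 67 and 84 and at 106 and 122 (1.17 ± 0.315, limma adjusted p = 0.202); in both, the OSCA-32 libraries were above PBS as deposited without passing. mt-Atp8 stood at 72 and 111 with PBS and at 94 and 51 with OSCA-32, where the groups overlapped. Leaving out either PBS 2 or OSCA-32 1, none of mt-Nd2, mt-Nd4, mt-Nd5, mt-Nd6, mt-Cytb and mt-Co1 passed, with adjusted p of 0.0513 to 0.172, and each kept its direction. Together the 13 mRNAs were 0.0617% and 0.0813% of the mouse total with PBS and 0.183% and 0.128% with OSCA-32, against 0.0205% and 0.0245% in week 0, so the PBS libraries were themselves above week 0. As listed, the median difference of PBS from week 0 over the 13 mRNAs was 1.46, larger than the 1.05 of OSCA-32 from PBS. These mRNAs thus also rose in mice without a tumour. mt-Cytb was higher with PBS than in week 0 by 1.38 ± 0.165 (SE) on the log2 scale (limma adjusted p = 0.0418). mt-Co1 was higher by 1.497 ± 0.123 (limma adjusted p = 0.01126), more than its 0.98 with OSCA-32 over PBS. mt-Nd4 at 0.95 ± 0.15 did not pass, nor did mt-Nd2, mt-Nd5 and mt-Nd6. The cause of either rise was not tested.

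Several of these mRNAs have copies in the nuclear genome, and the values of copy and mRNA traded places between libraries. A block on chromosome 1 (24611535 to 24616197) holds pseudogenes with at least 99% identity over at least 200 bases to 7 of the 13 mRNAs. mt-Atp6 and its copy Gm10925 are identical over 678 bases, of which the first 60 are shown because no read within them can be assigned to either.
mt-Atp6: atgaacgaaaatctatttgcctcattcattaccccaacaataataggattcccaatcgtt
Gm10925: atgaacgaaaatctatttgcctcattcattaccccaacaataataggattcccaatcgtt
mt-Atp6 was listed at 0 and 84 with PBS and at 195 and 0 with OSCA-32, while Gm10925 was listed at 90 and 19 and at 0 and 197. Their sums were 90 and 103 with PBS and 195 and 197 with OSCA-32, which do not overlap. For mt-Atp6 alone the log2 fold change was 0.91 ± 2.87, and for the sum it was 1.60 ± 0.127 (SE, limma adjusted p = 0.00141).

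The copies of mt-Co1 and mt-Nd3 differ from the mRNA by a single base within the aligned part, shown in capitals (positions counted from 1 at the start of the mRNA's transcript; A1066T in mt-Co1 against Gm29216 and T3C in mt-Nd3 against Gm28438, the mRNA's base first).
mt-Co1: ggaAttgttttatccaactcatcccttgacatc
Gm29216: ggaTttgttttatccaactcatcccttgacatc
mt-Nd3: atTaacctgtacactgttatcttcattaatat
Gm28438: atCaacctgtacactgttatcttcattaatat
Summed with its copy, mt-Co1 was 63 and 77 with PBS and 100 and 97 with OSCA-32, a log2 fold change of 1.07 ± 0.145 (limma adjusted p = 0.0182), near its value alone. mt-Nd3 alone was listed at 14 and 0 and at 0 and 17, and summed at 29 and 49 and at 39 and 43, which overlapped (0.68 ± 0.389, adjusted p = 0.623). mt-Co3 turned from -1.29 ± 1.57 alone to 1.38 ± 0.202 summed (limma adjusted p = 0.0266), with sums of 22 and 20 with PBS and 42 and 34 with OSCA-32. mt-Nd4l turned from -2.86 ± 2.19 to 0.74 ± 0.232, with sums of 67 and 80 and of 102 and 66, and did not pass. mt-Co2 summed passed at 1.16 ± 0.158 (limma adjusted p = 0.0182). The median of all 13 was 1.34 with the sums.

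**Figure D4:**
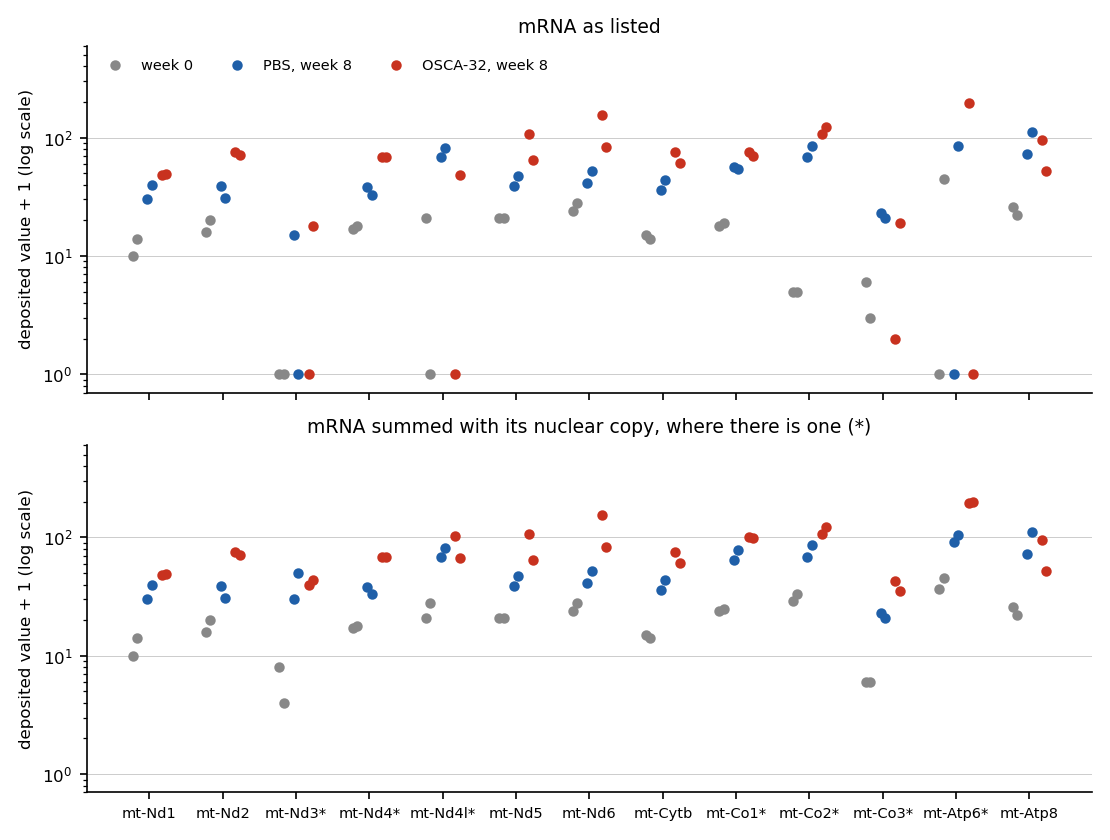
Deposited value + 1 (log scale) of the 13 mitochondrially encoded mRNAs in the week 0, PBS and OSCA-32 libraries, as listed (top) and summed with the nuclear copy where there is one (bottom, asterisk), 1 point per library. Summing removes the values of 0 of mt-Atp6, mt-Nd3, mt-Nd4l and, in OSCA-32, sets mt-Atp6 at 195 and 197.

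Gm20594, a predicted gene on chromosome 6 (79817916 to 79818364, plus strand, GRCm38), carries a partial copy of the mitochondrial large ribosomal RNA mt-Rnr2. Over 435 aligned bases the identity was 88.506%, and bases 368 to 432, within the annotated coding part, are identical to mt-Rnr2 and are shown because they cannot be assigned to either RNA.
Gm20594: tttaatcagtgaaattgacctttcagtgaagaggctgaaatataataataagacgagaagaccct
Gm20594 was listed at 372 and 358 in week 0, at 613 and 686 with PBS and at 1170 and 1092 with OSCA-32, and rose by 1.39 ± 0.0842 (SE) on the log2 scale (limma adjusted p = 0.000287), with 1.32 to 1.46 when any 1 library was left out. The table lists neither mt-Rnr2 nor mt-Rnr1.

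Ccdc107 (chromosome 4, 43492900 to 43495921, plus strand), a coiled-coil protein gene, was listed at 18 and 24 in week 0, at 23 and 30 with PBS and at 73 and 80 with OSCA-32. It rose by 2.07 ± 0.178 (SE) on the log2 scale (limma adjusted p = 0.00205), and by 1.89 to 2.23 with any 1 library left out. Its exon of 43492900 to 43493023 lies inside the locus of Rmrp, the RNA of the ribonuclease MRP, on the opposite strand, and the whole 124 bases are complementary to Rmrp. The first 30 bases of the run are shown because the sense of a read decides which gene it belongs to.
Ccdc107: ggggtcgcttcttggcgggctaacagtgac
The library kit keeps strand, per the labels' protocols; how the strand was used in quantification is not given in the sources used here, so without it Ccdc107 and Rmrp cannot be told apart over this exon. Rmrp is not among the genes of the table.

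Rdh16f1 (chromosome 10, 127759787 to 127792694), a gene of the retinol dehydrogenase family of vitamin A metabolism, was listed at 0 in both week 0 and both PBS libraries and at 19 and 26 with OSCA-32 (OSCA-40, 21 and 20). Listed at 0 in all 4 tumour-free libraries, it entered the test only through the tumour groups, so that its passing the test adds nothing to these values. Every word of 31 bases in its transcript occurs in another mouse gene: bases 1 to 500 are identical to a run of Rdh1 and bases 426 to 2766 to a run of Rdh9. The bases that all 3 genes hold, 426 to 500 in the coding part, are shown for that reason.
Rdh16f1: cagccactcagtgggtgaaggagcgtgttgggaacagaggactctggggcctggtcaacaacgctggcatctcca
As deposited, Rdh9 stood at 175 and 197 with PBS and at 122 and 101 with OSCA-32, and Rdh1 at 97 and 92 and at 58 and 64; their log2 fold changes after scaling were -0.15 ± 0.117 and -0.04 ± 0.0945, and neither passed. The other 7 tested members of the retinol dehydrogenase list did not pass. Gm21139, a processed pseudogene that likewise has no word of its own, was listed at 1 and 1 in week 0, at 0 and 1 with PBS and at 32 and 8 with OSCA-32 (limma adjusted p = 0.0452). It too entered the test only through the tumour groups, so its passing adds nothing to these values. With any 1 library left out its log2 fold change ran from 2.8 to 4.71, and its call depended on single libraries. Over all genes, at least 50% of words were shared in 6 of the 29 genes that were higher, 2 of the 13 lower and 793 of 7638 tested (10.4%).

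Among protein-coding genes with little shared sequence, Tmsb4x, which encodes the actin-binding peptide thymosin beta-4 and is abundant in platelets (X chromosome, 167207093 to 167209315), was listed at 43 and 42 with PBS and at 85 and 65 with OSCA-32. It rose by 1.36 ± 0.144 (SE) on the log2 scale (limma adjusted p = 0.00584) and did not pass without the first or the second PBS library (adjusted p = 0.056 and 0.0698). None of its words of 31 bases occurs in another gene. Ttyh1, a membrane protein of the tweety family, rose by 1.29 ± 0.159 (SE), from 57 and 54 to 83 and 101 (limma adjusted p = 0.0123), and did not pass without any 1 of the PBS or OSCA-32 libraries (adjusted p of 0.0603 to 0.128). Foxp2, a forkhead transcription factor known from brain circuits of vocalisation (chromosome 6, 14901349 to 15441977), was listed at 1069 and 1081 in week 0, at 775 and 767 with PBS and at 891 and 964 with OSCA-32. After scaling it rose by 0.851 ± 0.0537 (SE) on the log2 scale (limma adjusted p = 0.000353). As deposited the OSCA-32 values were above PBS and below week 0, and after scaling the difference from week 0 was 0.32 ± 0.0537 (adjusted p = 0.0563).

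Gm8260, a processed pseudogene on the X chromosome that shares a run of 53 bases with the prothymosin alpha gene Ptma, was listed at 13 and 17 in week 0, at 8 and 8 with PBS and at 17 and 16 with OSCA-32. It was higher by 1.47 ± 0.22 (SE) on the log2 scale (limma adjusted p = 0.0309) and did not pass without any 1 of the week 0, PBS or OSCA-32 libraries (adjusted p of 0.0649 to 0.188). Of the 17 genes that were higher by at most 1 on the log2 scale, 16 are not mitochondrially encoded, and their fold changes ran from 0.406 to 0.851 while the log2 ratio of their deposited means ran from -0.181 to 0.267. As deposited, 8 of these 16 were above PBS in their mean and 8 below, and with library totals alone as the scale Gm3298, Gm10038, Uap1, Pde5a, Ptpn5, Zfp738, Tlr1 and Trmt13 turned negative, at -0.18 to -0.0187. They include the transporter genes Slc26a3 (139 and 139 with PBS, 145 and 141 with OSCA-32; log2 fold change 0.62 ± 0.0777) and Slco1a6 (899 and 882, 962 and 878; 0.63 ± 0.0927), the glutathione transferase gene Gstt3 (104 and 102, 122 and 106; 0.72 ± 0.101), the scaffold gene Pick1 (414 and 416, 462 and 410; 0.65 ± 0.0789) and the splicing helicase gene Dhx16 (436 and 482, 482 and 444; 0.60 ± 0.075). The homeobox gene Mkx, the cGMP phosphodiesterase gene Pde5a, the tRNA methyltransferase gene Trmt13, the zinc finger gene Zfp738 and BC028528 were higher by 0.47 to 0.70 after scaling. Tlr1, Ptpn5 and Uap1 were higher by 0.41 to 0.43; they lie outside the rule for named genes and were added after their values were seen. Tlr1, a receptor of bacterial lipopeptides, had the highest values of these, 9130 and 10005 with PBS and 8921 and 8225 with OSCA-32. After scaling, both week 0 values lay above both PBS values for Slc26a3, Slco1a6, Gstt3, Pick1 and Dhx16. For these genes OSCA-32 differed from week 0 by 0.14 (Dhx16) to 0.43 (Pick1), and none passed (limma adjusted p of 0.0793 to 0.627). Of the 16, Uap1, Pde5a and Ptpn5 passed against week 0, at 0.48 to 0.53, and the others did not. Of these genes only Foxp2 passed without each of the 8 libraries.

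Markers of blood cells and liver were compared as lists, none of which contributed more than 1 gene that passed. Of 5 platelet genes tested, Tmsb4x passed, and the median was 0.983. The platelet chemokine Pf4 stood at 39 and 30 with PBS and at 46 and 46 with OSCA-32 (log2 fold change 0.98 ± 0.253, adjusted p = 0.183), above PBS in both libraries as deposited. Itga2b, the platelet fibrinogen receptor, stood at 29 and 18 and at 17 and 11 (-0.14 ± 0.306). Vwf, the von Willebrand factor, stood at 103 and 93 and at 70 and 76, lower as deposited and slightly higher once scaled (0.16 ± 0.116). Ppbp, named after its values were seen, stood at 7 and 9 and at 14 and 10. Only the 2 OSCA-32 libraries reached 10 for Ppbp, so it entered the test, and the list's median, only through them. The summed deposited level of the 19 platelet genes was 289 and 253 with PBS and 275 and 251 with OSCA-32, not higher as deposited. Mouse genes as a whole stood lower with OSCA-32 as deposited, so these sums do not give the direction after scaling. Once scaled, both OSCA-32 values exceeded both PBS values in 4 of the 5 tested platelet genes, beside 1608 of 7655 tested mouse genes. These 4 include Ppbp, whose entry through the OSCA-32 libraries largely fixed that order. Gp9, Tubb1 and Gp1bb were at 7 or less as deposited.

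Of 10 hepatocyte genes tested none passed, with a median of 0.641 that ran from 0.205 without the second OSCA-32 library to 1.03 without the first. Apoe, an apolipoprotein of liver and macrophages, stood at 9 and 12 with PBS and at 28 and 20 with OSCA-32 (log2 fold change 1.64 ± 0.292, adjusted p = 0.0591), where the groups did not overlap. Of the tumour-free libraries only the second PBS library reached 10, so Apoe met the filter only through the tumour groups. Alb, the serum albumin gene, named after its values were seen, stood at 7 and 13 and at 18 and 14 (1.19 ± 0.304, adjusted p = 0.183). The 20 hepatocyte genes summed to 142 and 155 with PBS and to 150 and 169 with OSCA-32. Of 10 erythroid genes none passed, with a median of 0.206 (from 0.122 to 0.348 when a single library was left out, the first of OSCA-32 or the second of PBS); the alpha-globin gene Hba-a2 stood at 299 and 313 in week 0, at 184 and 189 with PBS and at 157 and 173 with OSCA-32 (log2 fold change 0.41 ± 0.0708, adjusted p = 0.0561), lower as deposited and higher once scaled. In pooled serum, fewer cells of a type and less RNA per cell cannot be told apart.

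In the remaining lists the members that passed are those given above. Of 10 vesicle components none passed (median -0.262, and -0.0574 without the second OSCA-32 library), and Cd9 had a log2 fold change of -0.25 ± 0.106 (adjusted p = 0.467). Of 7 osteoclast genes none passed; Clcn7, the chloride channel of the bone-resorbing surface, stood at 435 and 438 with PBS and at 388 and 422 with OSCA-32 (log2 fold change 0.48 ± 0.0979, adjusted p = 0.0983). None of 8 osteoblast and bone matrix genes (median -0.13), 11 osteosarcoma-linked genes (-0.142), 8 interferon-stimulated genes (-0.0225), 6 MHC class I genes (-0.2) or 50 cytosolic ribosomal protein genes (-0.0811) passed. With 1 library left out, the medians ran from -0.131 to -0.00404 for the osteoblast list, -0.143 to 0.00991 for the osteosarcoma-linked list, -0.127 to 0.0801 for the interferon list, -0.349 to -0.163 for class I and -0.186 to -0.0151 for ribosomal proteins. The class I gene H2-Q4 stood at 322 and 301 and at 169 and 184 (-0.23 ± 0.0829). Cd3d, of the T cell receptor complex, was listed at 97 and 90 with PBS and at 64 and 75 with OSCA-32 in these athymic mice, while Cd3e stood at 3 to 4 and Trac at 2 to 6 in the same libraries. Paf1, the tested member of 5 mouse orthologues of an exosomal signature, stood at 206 and 227 with PBS and at 128 and 135 with OSCA-32 (log2 fold change -0.13 ± 0.166). No lung epithelium gene reached the minimum for testing.

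**Figure D5:**
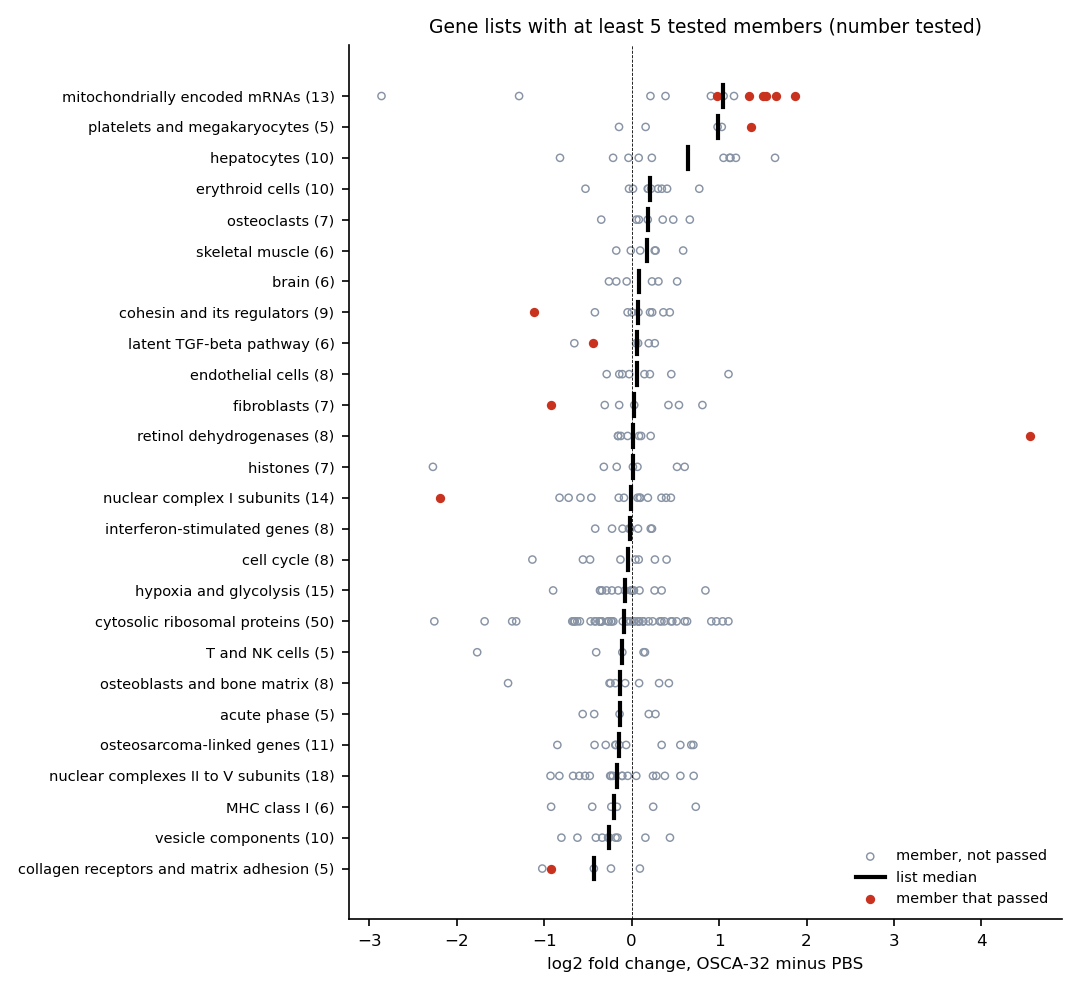
Log2 fold change of OSCA-32 minus PBS for the tested members of each gene list with at least 5 of them; open points did not pass, filled points passed, and the bar is the list's median. The mitochondrially encoded mRNAs have 6 filled points and the highest median, 1.05, and no other list has more than 1 filled point.

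Mouse genes listed only with the tumour were few. Of the 31300 mouse genes listed, 29 stood at 0 in all 4 tumour-free libraries and at 1 or more in both OSCA-32 libraries. The opposite arrangement held for 310. As deposited, mouse genes as a whole stood lower with OSCA-32, with 26706 and 27170 at 1 or more against 28467 and 28143 with PBS. The part of this lower level in the 2 counts was not tested. Of the 29, 7 were at 5 or more in both OSCA-32 libraries. Gm14361, a predicted gene on the X chromosome, was listed at 21 and 32 with OSCA-32 and at 0 in each of the other 6 libraries; it was the only mouse gene of that pattern at 10 or more and was named after its values were seen.

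The OSCA-40 libraries share the PBS controls and the fit with this comparison, so the differences of both lines from PBS are not independent and are set side by side here. The difference between the lines, tested in the same fit, is given further below. As deposited, Cd300lf stood at 4 in both OSCA-40 libraries, Ndufb2 at 34 and 28, Wapl at 72 and 83 and Gm44060 at 7 and 8. Ccdc107 stood at 54 and 45, Rdh16f1 at 21 and 20, Gm20594 at 895 and 780, Foxp2 at 721 and 695 and Tmsb4x at 95 and 88. The factors of these libraries were 0.482 and 0.463, so equal deposited values stand for higher scaled values there. On the scaled log2 scale the difference from PBS was -3.14 for Cd300lf, -2.35 for Ndufb2, -2.23 for Wapl and 2.50 for Ccdc107, where OSCA-32 gave -3.13, -2.19, -1.12 and 2.07.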

How the data were processed

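Vesicles were precipitated from serum with ExoQuick, their RNA was isolated with a SeraMir kit, and libraries that keep strand were built from total RNA, per the labels' protocols. FastQC 0.11.5, Trimmomatic 0.33.0, kallisto 0.43.0, GRCm38.p5 and CanFam3.1 appear in the submitters' processing notes. The values deposited by the authors are a score: whole numbers that sum to nearly the same total in every library, as TPM would, so they were not modelled as reads and no counting interval is given.

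Genes at 10 or more in at least 2 of the 8 libraries were tested (7655 mouse, 217 canine). Library factors are unweighted trimmed means of log ratios over mouse genes to the first week 0 library, trimming 30% of ratios and 5% of levels at each end. limma 3.58.1 (R 4.3.3) fitted log2(scaled value + 1) with 1 mean per group and a variance trend (4 residual degrees of freedom), with Benjamini-Hochberg adjustment over all 7872 genes. The procedure was tested on simulated data. Symbols and transcripts come from GENCODE mouse release 21 on GRCm38 (31171 of 31300 identifiers matched); alignments used BLAST 2.17.0.

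Named are the mouse genes with established symbols that passed (the 20 with the largest change where there are more), the 4 predicted genes with the highest mean among those that passed, the members of 38 gene lists that passed or had the 3 highest means, the mouse and canine genes with the highest means and up to 2 canine genes per direction. Gm44060, Gm21139, Gm8260, Gm3298, BC028528 and the further mitochondrially encoded mRNAs were added after their values were seen. The comparison, the rule and the lists were chosen with earlier results of these data known. Alternatives were other scalings, filters and pseudocounts, no variance trend, a replicate block, only the 4 libraries compared and leaving out each library.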

Additional observations from a re-analysis of the deposited data

Results flagged for a closer look

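The 2 tumour lines were compared in the same fit for the genes named above by symbol or identifier that passed against PBS. Those given here differed between OSCA-40 and OSCA-32 at a limma adjusted p of 0.05. Named genes that did not pass against PBS were left out, so the list is not a full account of differences between the lines. The PBS libraries cancel in the difference between the lines. Each value is OSCA-40 minus OSCA-32 on the scaled log2 scale, and groups of 2 libraries were not examined for outlying libraries.

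Among genes that were higher with OSCA-32 than with PBS, the OSCA-40 libraries were higher again by 1.36 ± 0.144 for Tmsb4x, 0.913 ± 0.101 for Gstt3, 0.68 ± 0.0537 for Foxp2 and 0.633 ± 0.0842 for Gm20594. The differences were 0.579 ± 0.075 for Dhx16, 0.554 ± 0.0662 for Gm10038, 0.451 ± 0.0777 for Slc26a3 and 0.396 ± 0.0686 for Tlr1. Ptpn5 was lower with OSCA-40 by 0.43 (-0.43 ± 0.0635), and stood at -0.00456 against PBS there. The respiratory chain mRNA mt-Co1 was also lower with OSCA-40 (-0.665 ± 0.123, adjusted p = 0.0402).

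Among genes that were lower with OSCA-32, the difference was -2.31 ± 0.196 for Gm44060, -1.11 ± 0.104 for Wapl and -0.667 ± 0.0735 for Ltbp1, lower still with OSCA-40. Gm10722 was higher with OSCA-40 by 0.319 ± 0.0575. The canine genes ENSCAFG00000030230 and ENSCAFG00000032531 were higher with OSCA-40 by 2.8 ± 0.151 and 2.56 ± 0.154, and ENSCAFG00000031012 differed by -1.42 ± 0.102. The canine gene with the highest mean over PBS and OSCA-32, given above without its identifier, differed by -14.13 ± 0.0867 (limma adjusted p = 4.32e-10).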

How the results depend on the processing

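Counts of mouse genes were 29 higher and 13 lower. They became 11 and 5 with no filter on low values, 9 and 8 with only the 4 libraries compared, and 14 and 8 with a replicate block. Higher calls numbered 11 with no variance trend. Lower calls numbered 50 with a mean of at least 50 and 1207 with library totals alone. Leaving out 1 library gave 4 to 27 higher and 4 to 21 lower. Canine calls, 44 and 2, became 27 higher with only the 4 libraries compared, and 22 lower with library totals alone or 1 with no filter. Leaving out 1 library gave 28 to 38 and 1 to 4. Whether the replicate numbers pair the libraries is not known. Differences between the first and second library of PBS and of OSCA-32 correlated at -0.056 across genes. That shows no strong shared effect of the number but cannot tell how the libraries were prepared. The cause of these changes was not tested; fewer libraries also leave fewer degrees of freedom.

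The median of the mitochondrially encoded mRNAs, 1.05, was 0.594 with library totals alone, 1.34 summed with nuclear copies and 1.02 to 1.32 with 1 library left out. The difference in canine share, 29.01 points, was 7.129 without the 2 highest genes and 30.25 over tested genes only. The difference in canine genes listed, 804, was -4.5 at 5 or more and 2 at 10 or more.

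With library totals alone, signs turned for Gm3298 (-0.0464), Uap1 (-0.18), Gm10038 (-0.103), Pde5a (-0.119), Ptpn5 (-0.16), Zfp738 (-0.0595), Tlr1 (-0.158) and Trmt13 (-0.0187). Among genes that did not pass they turned for Vwf (-0.419), Tgfbr1 (-0.524), Stag2 (-0.218), Fn1 (-0.54), Cd3d (-0.426), Cd300a (-0.405), Clcn7 (-0.109), mt-Atp8 (-0.363) and Hba-a2 (-0.177). Leaving out 1 library turned the sign of these uncalled genes, within the ranges given: Fn1 (-0.186 to 0.247), Ndufab1 (-0.311 to 0.137), Itga2b (-0.474 to 0.188), Rdh9 (-0.308 to 0.000365), Rdh1 (-0.0959 to 0.00605), mt-Atp8 (-0.238 to 0.669), mt-Atp6 (-2.92 to 4.73), mt-Co3 (-2.9 to 0.326) and mt-Nd3 (-1.69 to 2.47). Summing with nuclear copies turned mt-Co3 (1.38) and mt-Nd4l (0.74). Depth is unknown, so it sets no stated limit.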
